A study of Mus musculus with 6 samples.

Results

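Class IIa histone deacetylases (Hdac4, Hdac5, Hdac7 and Hdac9) and the MEF2 transcription factors they bind (Mef2a, Mef2c and Mef2d) were examined in mouse intestine. The 7 genes were chosen by name from a table of 54446 genes, and all 7 were among the 19176 genes that passed the filter on low counts. The study compared wild-type (WT) mice in 2 groups of 3 samples each, collected at 96 h. Control animals stayed with the dam. Animals of the other group, labelled NEC for the model of necrotizing enterocolitis, were gavaged with 40 µl of 33% Esbilac formula at intervals of 4 h, and at intervals of 12 h they breathed 99.9% nitrogen for 100 s and were then kept at 4 °C for 10 min. Feeding, hypoxia and cold therefore differ between the groups together and cannot be told apart. The segment of intestine, the age of the pups and whether each sample is 1 animal are not given in the sources that were used, so the p-values rest on the spread of these samples only, which may be technical.

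Class IIa deacetylases have almost no deacetylase activity of their own and act as signal-dependent corepressors. In the nucleus their amino-terminal part binds MEF2 on DNA and silences MEF2 target genes, with Hdac3 and its corepressor partners brought in by their carboxy-terminal domain. Kinases such as salt-inducible kinases, protein kinase D and calcium/calmodulin-dependent kinases phosphorylate them, 14-3-3 proteins bind the phosphorylated form, and the complex leaves the nucleus, which frees MEF2 to activate transcription. Much of this regulation takes place on the protein, which RNA counts do not measure. MEF2 factors are best known in muscle, neurons and vessels, where Hdac7 is a class IIa member of endothelium.

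The libraries held 69441184 to 106304239 counts each. Low counts gathered at multiples of 4, so 1 fragment may stand for several counts and these totals may overstate the depth. Epithelial markers were abundant in every library, with Epcam between 1833 and 2953 CPM. CPM are counts divided by the scaled library size. Control replicate 1 had both Xist (179 CPM) and the Y-linked gene Ddx3y (19.8 CPM), and control replicate 2 had Xist at 344 CPM with Ddx3y at 1.29 CPM, while the other 4 libraries had Xist at 1.17 CPM or less. Xist was thus high in control libraries only, and Xist and group cannot be told apart where control replicate 3 is left out. The log2 fold changes of the members are given without control replicate 1 or 2 where that moved them by over 1.5 times. The sample codes begin with AG181017 in 4 samples and with AG181028 in control replicate 3 and NEC replicate 1.

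None of the 7 genes passed the edgeR quasi-likelihood test at an adjusted p below 0.05, a threshold that 0.704% of all genes tested passed. At an unadjusted p below 0.05 there was 1 of the 7, Hdac5, against 15.6% of all genes tested. DESeq2 also called none of them, while it called 7.59% of the genes it adjusted, and limma-voom called none, with 0.787% of all genes called. The groups did not overlap for 2 of the 7, Hdac5 (lower in NEC) and Mef2a (higher in NEC), against 22.4% of all genes tested.

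Hdac5 (ENSMUSG00000008855, chromosome 11, 102194432 to 102230166, minus strand of mm10) is a class IIa member found in many tissues. It measured 86.0, 64.1 and 88.5 CPM in control replicates 1 to 3 and 60.9, 40.2 and 40.9 CPM in NEC replicates 1 to 3. All NEC libraries lay below the control libraries, and the gap between the nearest libraries, NEC replicate 1 and control replicate 2, was narrow. The means were 79.6 ± 13.4 CPM in control against 47.3 ± 11.7 CPM under NEC (SD, n = 3 each), a 1.68-fold lower level in NEC. The log2 fold change was -0.75 (SE 0.26, 95% interval -1.35 to -0.14, edgeR adjusted p = 0.233). With 1 library left out it stayed between -0.97 and -0.64, and it was -0.91 in the 4 AG181017 samples alone. The 2 controls among these 4 samples are the libraries with Xist, and the 2 NEC libraries among them are not, so that Xist and group cannot be told apart there. Whole tissue was sequenced, so fewer cells of a type and less RNA per cell cannot be told apart. The summed CPM of 8 myeloid markers separated the groups in the same direction, at 368, 290 and 314 in control and 184, 259 and 169 in NEC. Most of that sum was Csf1r, at 319, 245 and 272 CPM in control and 135, 149 and 105 CPM in NEC. Csf1r was the only 1 of the 8 with every NEC library below every control library. Exons of Hmgxb3 lie opposite those of Csf1r over 873 bases. Of the 8 myeloid markers 6 had positive log2 fold changes, so the sum follows Csf1r and not the list. The part of myeloid cells in the Hdac5 values was not tested.

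**Figure D1:**
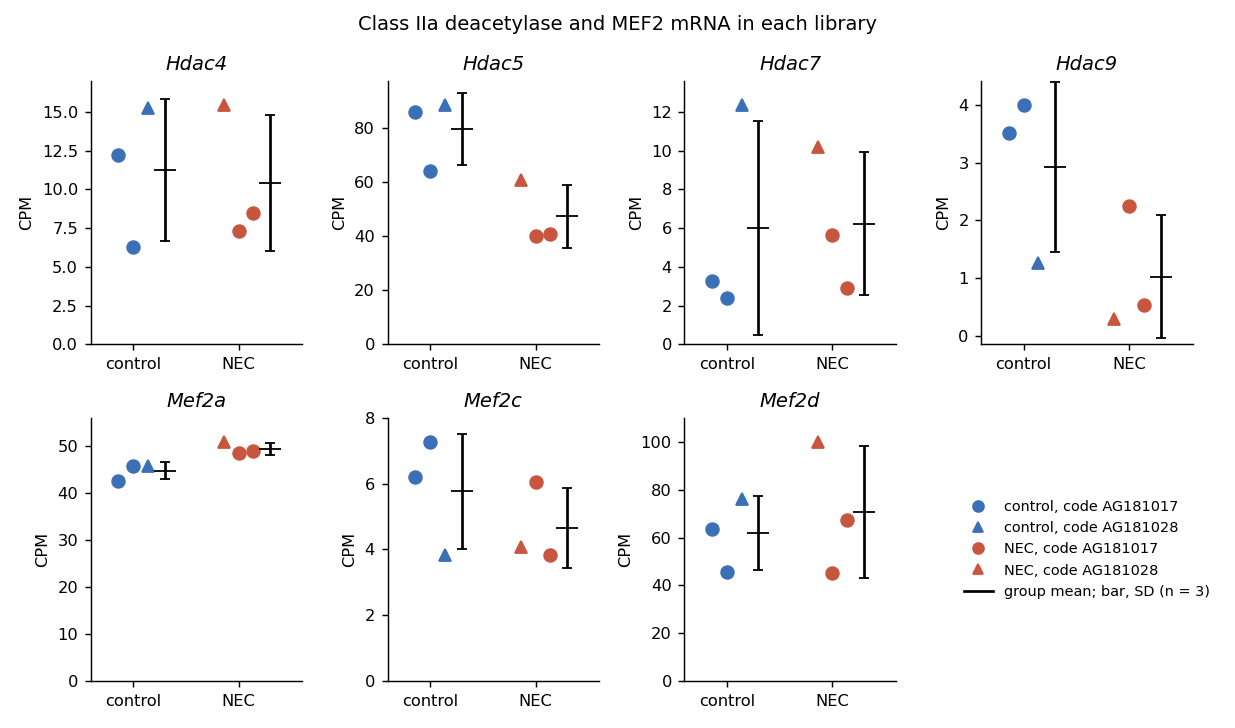
CPM of each member (vertical axis, linear, a separate scale per gene) in the 3 control and 3 NEC libraries, with circles and triangles for the 2 code prefixes and black bars for the group mean and SD. The groups do not overlap for Hdac5, whose means differ 1.68-fold, or for Mef2a, while the triangles stand highest for Hdac7 in each group and lowest for Hdac9.

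Hdac9 (ENSMUSG00000004698, chromosome 12, 34047580 to 34917095, minus strand), known as a MEF2 partner and itself a MEF2 target in muscle, was the least abundant member. It measured 3.52, 4.01 and 1.25 CPM in control against 0.283, 2.25 and 0.532 CPM in NEC. The groups overlapped, since NEC replicate 2 stood above control replicate 3. Behind these values were 258, 279 and 132 counts in control and 27, 199 and 37 counts in NEC, so the lowest libraries rest on few reads. The means were 2.93 ± 1.47 CPM and 1.02 ± 1.07 CPM, and the log2 fold change was -1.52 (SE 0.82, 95% interval -3.42 to 0.38, edgeR adjusted p = 0.426). This value depended on single libraries, at -2.86 when NEC replicate 2 was left out and -1.07 when NEC replicate 1 was, so that the difference was not resolved at this depth and replication.

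Hdac4 (ENSMUSG00000026313, chromosome 1, 91928779 to 92195699, minus strand), a class IIa member studied mainly in muscle, bone and brain, measured 12.2, 6.29 and 15.3 CPM in control against 15.4, 7.30 and 8.48 CPM in NEC. The highest library of each group was the AG181028 one, at nearly the same level. Its log2 fold change was -0.11 (SE 0.43, 95% interval -1.11 to 0.88), and the sign changed to positive without control replicate 3 (0.17), NEC replicate 2 (0.09) or NEC replicate 3 (0.02). It was -0.05 without control replicate 1 and -0.40 without control replicate 2. Hdac7 (ENSMUSG00000022475, chromosome 15, 97792664 to 97844502, minus strand), which maintains vessel integrity in the embryo, measured 3.27, 2.38 and 12.4 CPM in control against 10.2, 5.62 and 2.89 CPM in NEC. These 6 values spanned 5.18-fold with no separation of the groups. The log2 fold change was 0.05 (SE 0.70, 95% interval -1.58 to 1.69), and it ran from -0.50 without NEC replicate 1 to 1.15 without control replicate 3. It was negative as well without control replicate 1 (-0.24) or control replicate 2 (-0.33). Endothelial markers, 10 genes summed, stood at 140, 100 and 225 CPM in control against 197, 145 and 120 CPM in NEC. The sum put the 6 libraries in the same order as Hdac7, but not every marker did. Kdr, Eng, Egfl7 and Tie1 were highest in control replicate 3 and NEC replicate 1. Emcn was lowest in these libraries, at 10.9 and 10.6 CPM, and Erg was lowest in NEC replicate 1, at 2.30 CPM. The part of vessel content in the Hdac7 values was not tested. Exons of Gm26720 lie opposite those of Hdac4 over 3536 bases and exons of Slc48a1 opposite those of Hdac7 over 29 bases, and without a stated strand setting such reads cannot be told apart.

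Mef2a (ENSMUSG00000030557, chromosome 7, 67231163 to 67372858, minus strand), a broadly expressed MEF2 factor, was the least variable member. It measured 42.6, 45.7 and 45.7 CPM in control against 50.9, 48.5 and 48.8 CPM in NEC, and its highest library exceeded its lowest by 1.20-fold. Every NEC library lay above every control library, but the means of 44.7 ± 1.83 CPM and 49.4 ± 1.30 CPM were close. The log2 fold change was 0.14 (SE 0.19, 95% interval -0.31 to 0.60, edgeR adjusted p = 0.783) and stayed between 0.11 and 0.21 under every alternative. The interval leaves out any change in Mef2a mRNA as large as 2-fold, while those of Hdac4, Hdac5, Hdac7, Hdac9 and Mef2c include such a change and that of Mef2d ends just short of it.

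Mef2d (ENSMUSG00000001419, chromosome 3, 88142372 to 88172086, plus strand), another broadly expressed factor, measured 63.8, 45.7 and 76.2 CPM in control against 100, 45.3 and 67.4 CPM in NEC. The AG181028 library was again the highest of each group and the groups overlapped, and the log2 fold change was 0.20 (SE 0.34, 95% interval -0.59 to 0.99), which became -0.14 without NEC replicate 1. Without control replicate 2 it was 0.02, without NEC replicate 2 it was 0.44, and in the AG181017 samples alone it was 0.01. Mef2c (ENSMUSG00000005583, chromosome 13, 83504034 to 83667080, plus strand), known for its roles in heart, vessels, neurons and B cells, measured 6.20, 7.27 and 3.83 CPM in control against 4.07, 6.05 and 3.82 CPM in NEC. The groups overlapped, and the log2 fold change was -0.31 (SE 0.37, 95% interval -1.16 to 0.54). It ran from -0.55 without NEC replicate 2 to -0.11 without control replicate 2. Mef2c and Hdac9 shared their highest libraries in each group, control replicate 2 and NEC replicate 2. Smooth muscle markers, 10 genes summed, were lowest in the AG181028 library of each group, at 2763, 2142 and 1304 CPM in control against 1191, 3613 and 2240 CPM in NEC. Of the other marker lists, the sums of enteric neuron and glia, fibroblast and striated muscle markers were highest in control replicate 2 and NEC replicate 2. Those of endothelial, B cell, T cell, myeloid and epithelial markers did not have this pattern. The endothelial sum was lowest of all in control replicate 2, at 100 CPM. The B cell sum was highest in control replicate 1, at 7.26 CPM. Striated muscle markers were low, with 2.97 CPM in control replicate 2 and 4.01 CPM in NEC replicate 2. Enteric neuron and glia markers had 118, 172 and 116 CPM in control and 105, 137 and 110 CPM in NEC. Fibroblast markers had 660, 930 and 683 CPM in control and 495, 1902 and 592 CPM in NEC. The part of these cell types in the Mef2c and Hdac9 values was not tested. Exons of Lysmd4 lie opposite those of Mef2a over 302 bases, and those of 1700113A16Rik opposite Mef2d over 531 bases. Mef2b, the remaining MEF2 gene, was close to absent, with 2, 0 and 9 counts in control and 23, 16 and 13 counts in NEC, too few for a fold to be read.

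**Figure D2:**
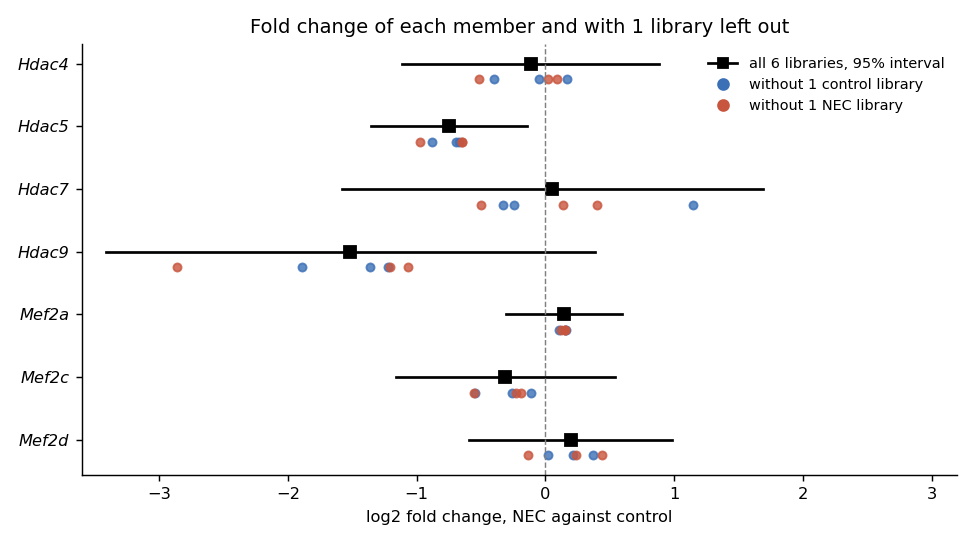
Log2 fold change of each member, NEC against control (squares, horizontal axis), with its 95% interval from the edgeR fit (lines) and the value after 1 library was left out (dots, coloured by the group that lost a library). The interval of Hdac5 alone excludes 0 before adjustment, and the dots of Hdac4, Hdac7 and Mef2d fall on both sides of 0.

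Levels of different genes can be set side by side only per length, here as CPM per kb of merged exons. On that scale the order was the same in both groups, with Mef2d first at 10.3 ± 2.57 in control and 11.9 ± 4.62 in NEC, then Hdac5 at 9.06 ± 1.53 and 5.39 ± 1.34. Mef2a followed at 3.04 ± 0.124 and 3.36 ± 0.0885 CPM per kb. Hdac7 (0.889 ± 0.817 and 0.923 ± 0.547) and Hdac4 (0.712 ± 0.288 and 0.658 ± 0.278) did not differ beyond their spread. Mef2c had 0.367 ± 0.112 and 0.296 ± 0.0777 CPM per kb, and Hdac9 had 0.200 ± 0.10 and 0.0696 ± 0.0729. In control the libraries of Mef2c overlapped those of Hdac4 and of Hdac9, while in NEC they lay between them without overlap. Those of Mef2d and Hdac5 overlapped in control and not in NEC. Of the summed class IIa level per kb, Hdac5 made up 77.8% to 87.7% in the control libraries and 73.5% to 82.3% in the NEC libraries, and in the MEF2 family Mef2d made up 67.2% to 81.8% over all libraries. Merged exons count every annotated isoform, so genes with many isoforms are placed too low on this scale.

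Ratios between members of a family within 1 library do not depend on how the libraries are scaled, and 9 pairs were compared. The log2 ratio of Hdac4 to Hdac5 was -2.82, -3.35 and -2.54 in control and -1.98, -2.46 and -2.27 in NEC. It was the only pair of the 9 whose groups did not overlap, with Hdac4 higher relative to Hdac5 in NEC by 0.66 on the log2 scale (two-sided exact permutation p = 0.1, the smallest that 3 samples against 3 allow, and 0.54 adjusted over the 9 pairs). With 1 library left out this difference ran from 0.44 (without control replicate 2) to 0.85. The ratio of Mef2a to Mef2d had nearly equal group means, at -0.44 ± 0.39 in control and -0.45 ± 0.54 in NEC. The 3 ratios to Hdac9 had the largest SDs of the 9 in each group, with Hdac7 to Hdac9 at -0.10, -0.75 and 3.30 in control and 5.17, 1.32 and 2.44 in NEC (exact permutation p = 0.3, adjusted p = 0.54).

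**Figure D3:**
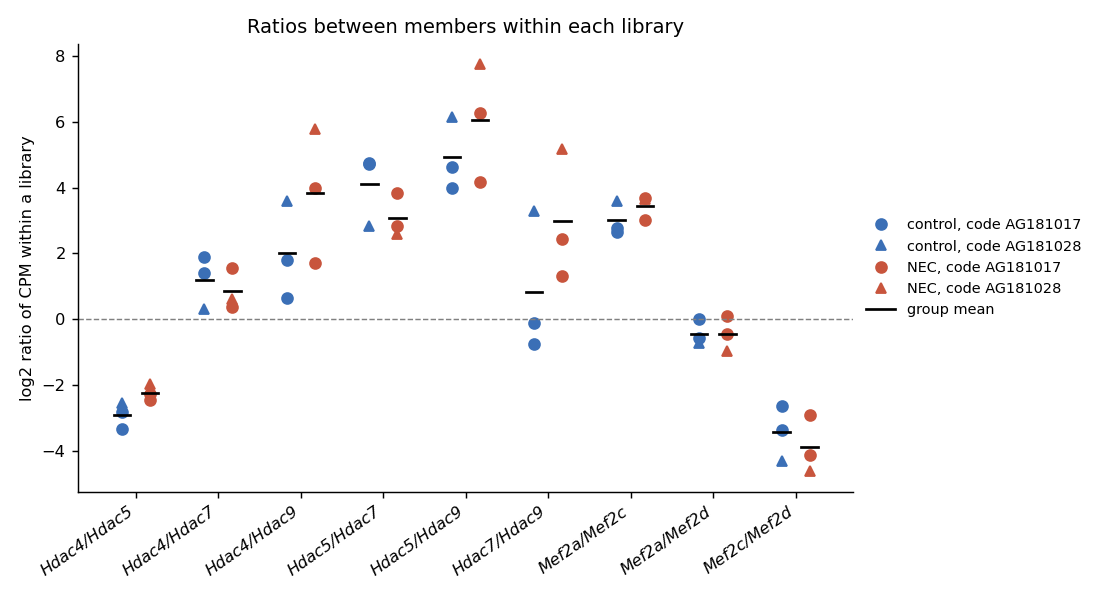
Log2 ratio of the CPM of 2 members within each library (vertical axis) for the 6 class IIa and 3 MEF2 pairs, with circles and triangles for the code prefixes and a black line for each group mean. The groups separate for Hdac4/Hdac5 only, and the triangles of the 2 AG181028 libraries take an extreme place in their group for most pairs with Hdac7 or Hdac9.

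Several members stood apart by sample code, a difference that was examined after the values had been seen. With the group in the fit, the AG181028 libraries differed from the AG181017 libraries in Hdac7 by a log2 value of 1.71 (SE 0.38, edgeR adjusted p = 0.174), in Hdac4 by 0.85 (SE 0.31, adjusted p = 0.233) and in Mef2d by 0.66 (SE 0.25, adjusted p = 0.244). The AG181028 libraries were lower in Hdac9, by a log2 value of -1.91 (SE 0.65, edgeR adjusted p = 0.216), and Mef2c had -0.54 (SE 0.33). Mef2a (0.06, SE 0.18) and Hdac5 (0.42, SE 0.21) had smaller values. None of these passed the edgeR test, which called 0.0261% of all genes for this difference, and an unadjusted p below 0.05 was reached by 4 members and by 18.3% of all genes tested. What the code stands for is not stated in the labels. With the code in the fit, the NEC difference in Hdac5 was -0.77 and its edgeR adjusted p was 0.107, the smallest of any alternative.

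Sequences before the start sites were searched for the MEF2 consensus site, because MEF2 is known to activate the gene of its own corepressor Hdac9. RefSeq windows (GRCm38.p6, the build of mm10) of 250 bases before to 50 bases after each start were found for all 7 members, 13 windows in all. As a pattern, each form reads the same on both strands. The strict form occurred in 1 window of Hdac5 and 1 of Mef2a, which had differed in direction. Neither form was in the Hdac9 windows, which says only that these letters are not there. Of all 32851 windows 0.557% held the strict form. The looser form was found in the same 2 members' windows and in 3.19% of all windows. Not every related or marker gene had a window, so some genes not named here were not searched. Windows were found for 13 of 17 kinases and 13 of 15 MEF2 targets. Among markers they were found for 5 of 10 enteric neuron and glia genes and 3 of 8 fibroblast genes. Among the related genes described below, the strict form also occurred in windows of Jun and Klf2, which are known MEF2 targets, and of the 14-3-3 gene Ywhah. Among the marker genes it occurred in windows of the smooth muscle gene Synpo2 and the striated muscle gene Ttn. Only the looser form was found for the MEF2 targets Nr4a2 and Mmp10 and for the markers Myh1, Myh4, Myh8, Erg and Cd22. The strict matches of the members, the MEF2 targets and Ywhah, in capitals with 10 bases to each side, are printed 5′ to 3′ on the strand of the gene so that they can be compared.
Hdac5: gggtctgagcCTATTTTTAGctcggggtcg
Mef2a: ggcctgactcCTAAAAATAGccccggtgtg
Jun: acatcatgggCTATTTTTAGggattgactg
Klf2: tataccgcggCTAAATTTAGgctgagcccg
Ywhah: ctcgccgcggCTATTTATAGtaggtgacgt
The capitals of Hdac5 and Jun are the same 10 bases, and those of Mef2a are their reverse complement, so these sites hold the same base pairs. The Hdac5 match lies 20 to 11 bases before the start (chr11:102230173-102230202, minus strand) and that of Jun 33 to 24 bases before it (chr4:95052236-95052265, minus strand). The Mef2a match begins 2 bases before the start and runs across it (chr7:67372841-67372870, minus strand). Those of Klf2 (chr8:72318934-72318963, plus strand) and Ywhah (chr5:33018696-33018725, plus strand) lie further upstream. A match is a run of letters and not a measured binding site, and these data hold no binding measurement. Genes with a match did not share a direction. Jun had a log2 fold change of 0.20 (SE 0.45), Klf2 of 0.55 (SE 0.39) and Ywhah of 0.18 (SE 0.23), none past the edgeR test. Synpo2 had -0.58 (SE 0.66), and Ttn was too low to be tested.

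The 250 bases before the Hdac5 start are shown whole because Hdac5 had the smallest p of the members and its match lies close to the start (chr11:102230173-102230422, minus strand, match in capitals).
Hdac5: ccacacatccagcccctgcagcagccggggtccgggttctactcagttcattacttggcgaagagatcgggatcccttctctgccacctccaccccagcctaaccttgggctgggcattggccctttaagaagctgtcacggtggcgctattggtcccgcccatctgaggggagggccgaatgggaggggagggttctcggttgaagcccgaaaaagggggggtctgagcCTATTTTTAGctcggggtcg

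Genes that act on class IIa deacetylases were read from the same fit. Of 17 kinase genes none passed the edgeR test, beside 0.704% of all genes tested, and 1 had an unadjusted p below 0.05, beside 15.6%. Log2 fold changes were positive for 10 and negative for 7, and the median was 0.11 beside 0.03 over all genes tested. This median was 0.33 in the AG181017 samples alone and ran from 0.02 without control replicate 2 to 0.22 without NEC replicate 1. The salt-inducible kinase gene Sik1, whose product phosphorylates class IIa deacetylases and whose mRNA is known to respond quickly to stimuli, measured 2.38, 1.35 and 3.82 CPM in control against 6.93, 6.23 and 5.40 CPM in NEC. Every NEC library was above every control library (log2 fold change 1.29 with SE 0.43, edgeR adjusted p = 0.214, and DESeq2 called it). The protein kinase D gene Prkd3 did not overlap either, at 6.97 ± 4.30 CPM in control against 17.7 ± 7.57 CPM in NEC (log2 fold change 1.34 with SE 0.59). Sik1 and Prkd3 were the only 2 of the 17 without overlap, beside 22.4% of all genes tested. Camk2b (1.42, SE 0.67) and Camk2d (0.75, SE 0.41), which encode calcium/calmodulin-dependent kinases, had overlapping groups, and their 2 highest libraries were NEC replicates 1 and 3.

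Of the 8 genes for 14-3-3 proteins and the nuclear export receptor, none passed the edgeR test, beside 0.704% of all genes tested. An unadjusted p below 0.05 was found for 1, against that same 15.6%, and 4 log2 fold changes were positive and 4 negative. The median was 0.02, between -0.12 in the AG181017 samples alone and 0.17 without control replicate 1. Sfn, the 14-3-3 sigma gene of epithelia, measured 63.5, 36.5 and 83.0 CPM in control against 159, 91.4 and 241 CPM in NEC, with groups that did not overlap (log2 fold change 1.42 with SE 0.43, edgeR adjusted p = 0.179, and DESeq2 called it). Sfn was the only 1 of the 8 without overlap, beside 22.4% of all genes tested. The broadly expressed 14-3-3 genes Ywhaz (0.38), Ywhaq (0.29) and Ywhab (-0.23) had smaller log2 fold changes. Of 9 corepressor partners, none passed, beside 0.704% of all genes tested. None had an unadjusted p below 0.05, beside 15.6% of all genes, and there were 7 negative values and a median of -0.15. Hdac3, the deacetylase that gives class IIa complexes their activity, measured 64.5 ± 2.29 CPM in control against 54.8 ± 1.87 CPM in NEC with groups that did not overlap (log2 fold change -0.24 with SE 0.19, edgeR adjusted p = 0.623). It was the only 1 of the 9 without overlap, beside 22.4% of all genes tested. Cbx5 (-0.61, SE 0.34) and Tbl1xr1 (-0.75, SE 0.67) had overlapping groups.

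On the MEF2 side, none of 12 activators and coactivators passed the test, beside 0.704% of all genes tested. None had an unadjusted p below 0.05, beside 15.6% of all genes, and the median was -0.16. The acetyltransferase gene Kat2b measured 52.8 ± 5.11 CPM in control against 39.0 ± 2.58 CPM in NEC and did not overlap (log2 fold change -0.44 with SE 0.21, edgeR adjusted p = 0.359). It was the only 1 of the 12 without overlap, beside 22.4% of all genes tested. The calcineurin genes Ppp3ca (-0.43), Ppp3cc (0.50) and Ppp3r1 (0.28), whose phosphatase activates MEF2, had log2 fold changes of both signs and overlapping groups.

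Of 15 known MEF2 target genes 14 were tested, the myoglobin gene Mb being too low. None passed the edgeR test, beside 0.704% of all genes tested. Of the log2 fold changes 9 were positive and 5 negative, and the median was 0.40 beside 0.03 over all genes tested. The median was 0.18 in the AG181017 samples alone, 0.27 with at least 50 counts required in 3 samples, and ran from 0.10 without NEC replicate 1 to 0.64 without NEC replicate 2. An unadjusted p below 0.05 was found for 4 of 14, beside 15.6% of all genes. Every NEC library lay above every control library for 3 of the 14 and below for 1, beside 10.8% and 11.6% of all genes. Klf4, a transcription factor gene of differentiated epithelium, measured 118, 116 and 134 CPM in control against 438, 174 and 337 CPM in NEC. All NEC libraries stood above all controls (log2 fold change 1.37 with SE 0.35, edgeR adjusted p = 0.124, and DESeq2 called it). The immediate early gene Arc did not overlap either, but it stood at 0.173 ± 0.0643 CPM in control against 0.812 ± 0.183 CPM in NEC, a low level (log2 fold change 2.21 with SE 0.58, edgeR adjusted p = 0.13). The orphan nuclear receptor genes Nr4a1 and Nr4a2 had opposite signs. Nr4a1 measured 2.44, 4.93 and 1.81 CPM in control against 2.77, 12.7 and 11.02 CPM in NEC with overlapping groups (log2 fold change 1.53 with SE 0.63). Nr4a2 measured 2.47, 1.26 and 2.09 CPM in control against 0.870, 0.959 and 0.862 CPM in NEC without overlap (log2 fold change -1.11 with SE 0.42, edgeR adjusted p = 0.265). These genes have many regulators besides MEF2.

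**Figure D4:**
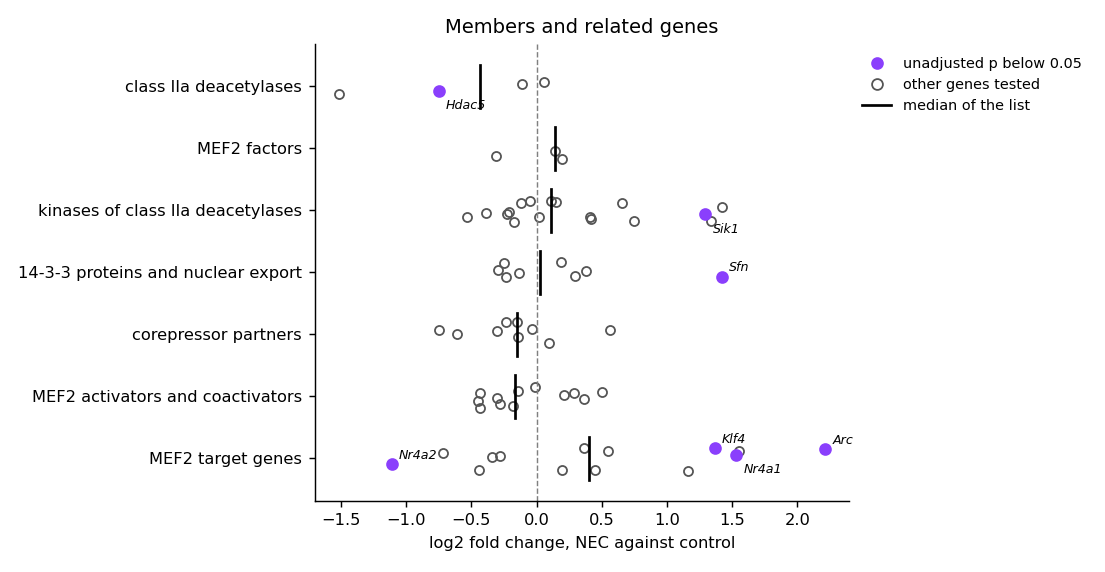
Log2 fold change, NEC against control (horizontal axis), of the 7 members and of each related gene tested, by list, with the list's median as a black line and named filled dots for genes with an unadjusted p below 0.05. Medians lie between -0.43 and 0.40, and the filled dots of the MEF2 target list fall on both sides of 0.

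Markers of cell types in which MEF2 factors are known to act gave no called gene in the edgeR test, beside 0.704% of all genes tested. The median log2 fold change was -0.18 for 10 smooth muscle markers, 0.04 for 10 endothelial markers, -0.09 for 10 enteric neuron and glia markers, 0.27 for 8 fibroblast markers and -0.09 for 10 epithelial markers. It was -0.64 for the 6 B cell markers tested of 7, -0.36 for the 6 T cell markers tested of 8 and 0.49 for 8 myeloid markers. Of 10 striated muscle markers 5 passed the filter on low counts, their sum stayed between 1.62 and 4.01 CPM, and Myh4 was at 0 in every library. The glial gene S100b measured 4.14, 3.43 and 7.39 CPM in control against 0.231, 1.84 and 0.776 CPM in NEC (log2 fold change -2.39 with SE 0.73, edgeR adjusted p = 0.182). The neuronal gene Uchl1 had 1.03 (SE 0.38), so the list moved in no single direction. In the myeloid list the lysosomal gene Cd68 (1.31, SE 0.26) and the growth factor receptor gene Csf1r (-1.10, SE 0.24) had opposite signs. In the epithelial list Krt19 had 1.56 (SE 0.34) and Krt8 0.41 (SE 0.25), but only 3 of the 10 log2 fold changes were positive and 7 were negative.

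The genes most like each member over the 6 libraries were found among 10065 named protein-coding genes with a mean of at least 5 CPM. For each member the best match had a Pearson r of at least 0.99 in log2 CPM, so the names describe these 6 libraries only. Hdac5 was most like Npc1l1, the intestinal cholesterol transporter gene (r = 0.994), which measured 1029, 675 and 1064 CPM in control against 595, 355 and 408 CPM in NEC. Ankib1 came next for Hdac5 (0.992). Hdac4 was most like Zfp553 (0.998) and Smarca4 (0.996), a chromatin remodelling ATPase gene, and Mef2d like Pak4 (0.999) and Camsap3 (0.998). Hdac7 was most like Zbed6 (0.99), which measured 2.68, 2.20 and 19.1 CPM in control against 19.3, 5.82 and 2.67 CPM in NEC, with both AG181028 libraries high, and then like Phf20l1 (0.988). Hdac9 was most like Ankmy2 (0.992) and Pdcl (0.99), and Mef2a like Clcc1 (0.996) and Pwwp2a (0.995). Mef2c was most like Cfl2, the cofilin gene of muscle (0.993), at 43.1, 57.3 and 27.2 CPM in control against 28.0, 43.5 and 26.7 CPM in NEC, and like Nfib (0.991).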

How the data were processed

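RNA of 6 intestinal samples was extracted with TRIzol and sequenced in pairs (NovaSeq), per the labels' protocols. The deposited file holds unnormalized counts per gene for the 6 samples together; mm10 is the build in the submitters' processing notes. Aligner, counter, annotation and strand setting: not given in the sources used here. Low counts gathered at multiples of 4 (1.94 times as frequent as their neighbours), so 1 fragment may stand for several counts and small counts are less precise than they look. Identifiers were named with GENCODE M21, which left 37 unmatched.

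The test was that of edgeR 4.0.16 (R 4.3.3): filterByExpr with a minimum count of 10, TMM scaling, the quasi-likelihood F test with robust=TRUE, and Benjamini-Hochberg adjustment over all 19176 genes tested. A gene was called at an adjusted p below 0.05. SE is the fold change over the root of F. Log2 CPM used a prior count of 2. Ratios were tested with scipy 1.17.1. Alternatives used DESeq2 1.42.0, limma 3.58.1, other scalings and filters, robust=FALSE, the replicate number or code prefix in the fit, and fewer libraries. The procedure was tested on simulated data. Members and lists were chosen with earlier results of these data known, and MEF2 targets and markers are textbook lists. Named genes were all members, up to 4 per related list and 2 per marker list with the smallest p, and the 2 genes most like each member; the genes with a promoter match, Xist, Ddx3y and Epcam were named after their values or sequences were seen. The values of 1 gene of the corepressor list are not reported here.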

Additional observations from a re-analysis of the deposited data

How the results depend on the processing

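Under all 17 alternatives no member was called, and Hdac5, Hdac9, Mef2a and Mef2c kept their sign. Signs changed with 1 library left out for Hdac4 (range -0.515 to 0.171, with 0.171 without control replicate 3, 0.092 without NEC replicate 2, 0.019 without NEC replicate 3), Hdac7 (range -0.50 to 1.147, with -0.242 without control replicate 1, -0.326 without control replicate 2, -0.50 without NEC replicate 1) and Mef2d (range -0.139 to 0.438, with -0.139 without NEC replicate 1); the cause was not tested. The number of genes called over the whole table, 135, was 247 with no low-count filter, 1452 by DESeq2, 243 with the code prefix as a term, 25 in the AG181017 samples alone and 0 (without control replicate 1) to 106 with 1 library left out. With the replicate number as a block it was 54, and the block changed no call among the members; same-numbered libraries shared only a number (correlations of deviations -0.141, 0.269 and -0.007). DESeq2 called 1 kinase gene (Sik1), 1 gene of the 14-3-3 and export list (Sfn) and 2 MEF2 targets (Klf4 and Arc), where edgeR called 0; DESeq2 called 7.59% of all genes it adjusted, so 1 of 17 kinases and 1 of 8 are counts near that share. The median of MEF2 activators was 0.08 without control replicate 3 and that of corepressor partners ran from -0.39 without NEC replicate 1 to 0.01 without NEC replicate 2. With 3 samples a group, intervals as wide as that of Hdac9 leave several-fold differences undetected.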
